A study of Homo sapiens with 6 samples.

Results

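A group of 10 genes of the endoplasmic reticulum (ER) folding machinery and the unfolded protein response was followed in LoVo, an established cell line that derives from a colorectal adenocarcinoma, with and without DCC-2036. The members are HSPA5, HSP90B1, DNAJB9, DNAJC3, SDF2L1, HERPUD1, PDIA4, PDIA6, CRELD2 and MANF, taken by gene symbol from 19223 symbols and 45006 transcripts. They have 19 transcripts in the deposited table, and each gene is represented by its most abundant transcript, judged by the mean of all 6 libraries. The Control group was vehicle-treated LoVo without DCC-2036 (n = 3 libraries), and the other group was LoVo given 2.5 μM DCC-2036, a tyrosine kinase inhibitor also called Rebastinib (n = 3 libraries). According to the sample labels the treatment lasted 48 h, whereas a figure legend of the study gives a shorter time for its RNA-seq. All libraries were made from total RNA of 1 unmodified line in culture, and the labels do not say whether the 3 libraries of a group came from separate cultures, so p-values measure only the spread between these libraries.

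The lumen of the ER folds proteins that will be secreted or placed in membranes. When unfolded proteins build up, 3 sensors in the ER membrane respond. IRE1 (gene ERN1) splices the XBP1 mRNA, PERK (EIF2AK3) phosphorylates the initiation factor eIF2α and so favours translation of ATF4, and ATF6 is cut in the Golgi by the proteases encoded by MBTPS1 and MBTPS2 to release a transcription factor. Genes of ER chaperones are classic targets of ATF6 and of spliced XBP1, which read the ER stress response elements (ERSE and ERSE-II) of their promoters, and HSPA5, encoding BiP, is the standard marker of the response in cultured epithelial cells.

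Promoter stretches of 8 members are shown because they carry these elements, or, in DNAJC3 and MANF, 1 member called higher and 1 called lower, because neither complete element was found. They come from RefSeq windows of 250 bases before to 50 bases after the start on GRCh38.p14, each read 5′ to 3′ on the strand of its gene, and the table held 12 windows for all 10 members. Capitals mark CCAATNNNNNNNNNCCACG (ERSE) on either strand in the first 4 lines, at chr9:125241371-125241429 on the minus strand for HSPA5, chr12:103930196-103930359 on the plus strand for HSP90B1, chr2:10812833-10812891 on the minus strand for PDIA6 and chr22:49918534-49918592 on the plus strand for CRELD2. They mark ATTGGNCCACG (ERSE-II) on either strand for HERPUD1, at chr16:56932005-56932055 on the plus strand, and SDF2L1, at chr22:21642094-21642144 on the plus strand. For DNAJC3, at chr13:95676939-95677088 on the plus strand, and MANF, at chr3:51385112-51385252 on the plus strand, capitals mark the separate CCACG and CCAAT boxes on either strand.
HSPA5: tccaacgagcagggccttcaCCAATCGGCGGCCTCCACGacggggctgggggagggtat
HSP90B1: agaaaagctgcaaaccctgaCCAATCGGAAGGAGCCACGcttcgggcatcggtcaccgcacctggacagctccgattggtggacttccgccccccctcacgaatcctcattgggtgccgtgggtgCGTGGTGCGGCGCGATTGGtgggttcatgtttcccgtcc
PDIA6: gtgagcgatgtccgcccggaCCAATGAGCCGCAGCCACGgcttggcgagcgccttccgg
CRELD2: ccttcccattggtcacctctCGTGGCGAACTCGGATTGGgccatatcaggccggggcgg
HERPUD1: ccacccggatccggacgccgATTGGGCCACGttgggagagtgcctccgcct
SDF2L1: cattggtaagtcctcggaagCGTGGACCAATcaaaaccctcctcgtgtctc
DNAJC3: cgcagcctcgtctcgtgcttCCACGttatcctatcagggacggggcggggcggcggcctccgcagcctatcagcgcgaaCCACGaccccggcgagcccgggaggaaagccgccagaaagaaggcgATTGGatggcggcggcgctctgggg
MANF: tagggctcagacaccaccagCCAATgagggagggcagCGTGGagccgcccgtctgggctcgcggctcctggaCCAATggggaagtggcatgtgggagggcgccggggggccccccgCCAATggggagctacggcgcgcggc

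The complete ERSE was found in 4 of the 10 members, against 0.0769% of all 35116 windows. The match in HSPA5 lay from base -66 to base -48 before the start, and HSP90B1 held 2 matches, at -194 to -176 and, on the opposite strand, at -89 to -71. PDIA6 carried it from -86 to -68 in 1 of its 2 windows, and CRELD2 on the opposite strand from -80 to -62. ERSE-II was in HERPUD1 (-117 to -107) and SDF2L1 (-188 to -178, opposite strand), against 0.0541% of all windows. The composite elements contain a CCAAT box and a CCACG box by construction, and these 2 short boxes alone were in all 10 members but also in 34.6% and 38.1% of all windows. TGACGTG, the core of the unfolded protein response element, was in 0 members and in 1.97% of windows, and TGATGNAA, the core of the composite site of ATF4 and C/EBP factors (CARE), was in HERPUD1 and in 3.62% of windows. A match describes letters in the window and no match says only that the letters are not there.

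**Figure D1:**
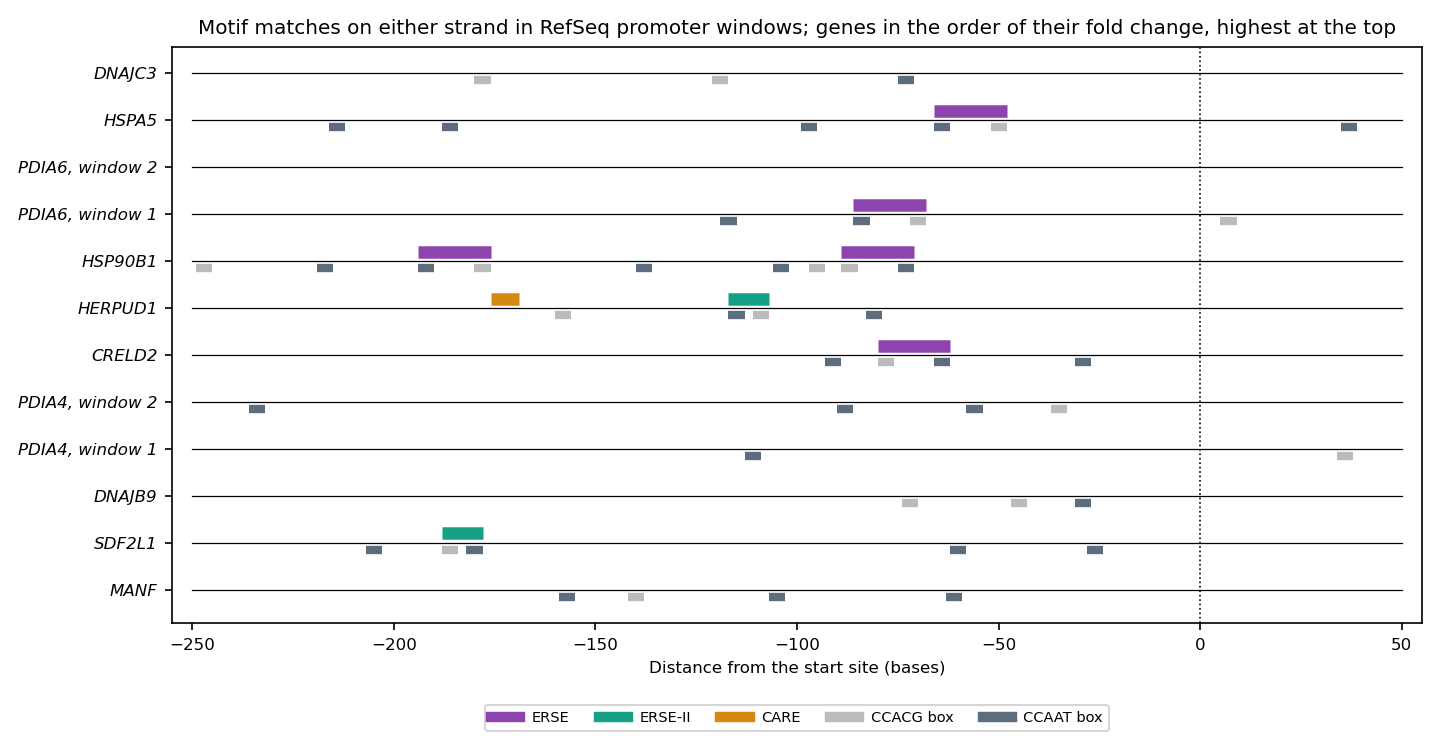
Motif matches (coloured blocks, both strands) along the 12 promoter windows of the members, by distance from the start site in bases (dotted line, start), ordered from the highest fold change at the top to the lowest at the bottom. The genes with complete ERSE or ERSE-II matches run from HSPA5 near the top to SDF2L1 next to the bottom, while DNAJC3 and MANF have the short boxes alone; PDIA6 window 2 holds no match.

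The deposited values are signals already adjusted by the authors, not whole numbers, so the number of reads behind them is unknown. The groups differ in the make-up of the values. Exactly the same 5697 transcripts were at 0 in all 3 DCC-2036 libraries, where the smallest values above 0 were 0.00326 to 0.0139, whereas 7844 to 8078 were at 0 in Control and its smallest values were 0.606 to 0.82. The members, at 132 or more in every library, are far above these values. Libraries also varied more in DCC-2036, with a median SD over genes of 0.228 on the log2 scale against 0.101 in Control, and DCC-2036 replicate 2 lay between the other replicates in 67.6% of tested genes (Control replicate 2, 41.1%). The limma test uses 1 spread for both groups, and the part of these differences in the fold changes and p-values was not tested. Whether the 2 groups were normalized together is not given in the sources used here, and a difference in normalization cannot be told apart from one between the groups in any fold change below. Column totals ran from 38997229 to 40587145 in Control and from 43279603 to 48023306 in DCC-2036, where replicate 3 had the highest. Over all 12725 tested genes the median log2 fold change was -0.09. With the column totals made equal that median was -0.28. Of 13 colorectal epithelium markers 6 were at 10 or more in every library (EPCAM, KRT8, KRT18, KRT19, KRT20 and CDX2), whereas CDX1 and TFF3 were at 0 in all libraries. Their summed level was 102850 to 113392 in Control against 145044 to 184879 in DCC-2036, without overlap, with KRT8 called higher (1.81-fold, limma, adjusted p = 0.00287) and KRT20 lower (44.1% of Control, adjusted p = 0.00427). With the replicate number as a term of the limma model, 1 of these markers was called higher and 0 lower, so KRT20 lost its call. Calls among all tested genes fell too with this term, from 2442 to 1202 higher and from 2887 to 1909 lower. Of 15 markers of other cell types, 5 to 7 were at 10 or more, PTPRC was at 0 throughout, and their summed level was 741 to 774 in Control against 787 to 984 in DCC-2036. The part of either marker list in the results was not tested. In bulk RNA, fewer cells of a kind and less RNA per cell cannot be told apart.

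The members differed in both directions in DCC-2036. DNAJC3, HSPA5 and PDIA6 were called higher, at 2.62-fold, 1.67-fold and 1.65-fold of the Control mean, and SDF2L1 and MANF were called lower, at 47.4% and 47.8% of it. HSP90B1, HERPUD1, CRELD2, PDIA4 and DNAJB9 were not called. A call is an adjusted p-value under 0.01 in limma on log2(value + 1), adjusted over all 12725 tested genes, and all 10 members passed the filter on low values. Thus 3 of 10 members were called higher, where 19.2% of all tested genes were, and 2 of 10 lower, where 22.7% were. Groups did not overlap in 6 members on the higher side (32.9% of all tested genes) and in 2 on the lower side (38.1%). No count of 10 genes is read here as particular to the members. They spanned 2.46 on the log2 scale from MANF to DNAJC3. MANF and SDF2L1 were not separated in this order (-1.07 and -1.06), and by the ratio of means, without Control replicate 2 or 3, or after GC and length removal, SDF2L1 was the lower. When any 1 Control library or DCC-2036 replicate 2 was left out, 1 member (DNAJC3) was called higher and 1 or 2 lower, while the calls among all tested genes also fell, from 2442 to between 928 and 1054 higher and from 2887 to between 1514 and 1708 lower. The median log2 fold change of the 10 members was 0.16, and with equal totals -0.03. Those of all tested genes were -0.09 and -0.28.

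**Figure D2:**
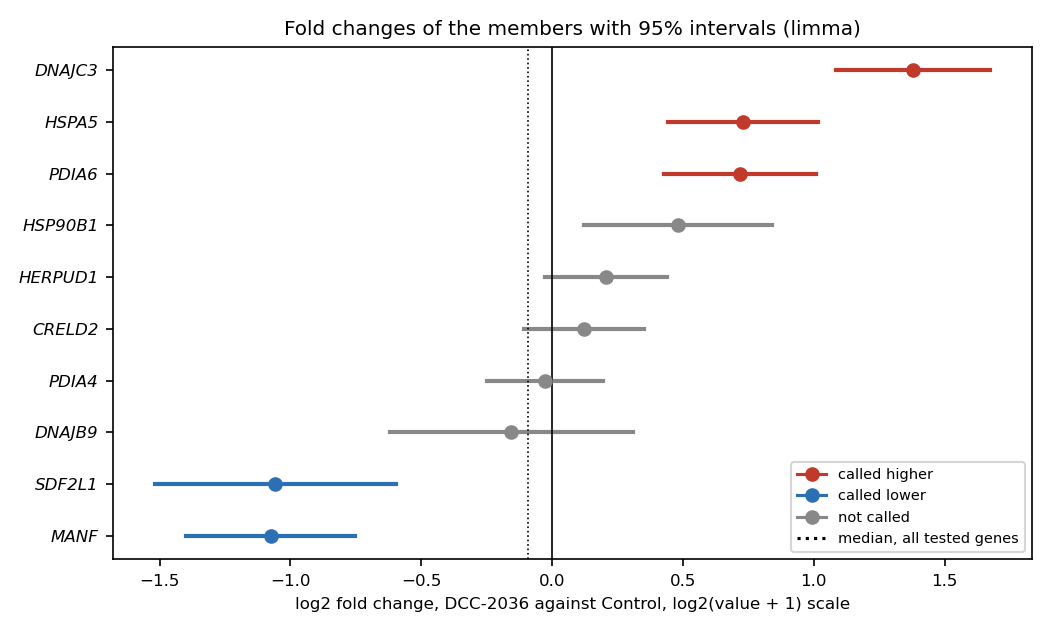
Log2 fold change of each member, DCC-2036 against Control (x axis, log2(value + 1) scale, points), with its 95% interval from limma (bars) and the median of all tested genes (dotted line). DNAJC3, HSPA5 and PDIA6 stand to the right (1.38, 0.73 and 0.72), SDF2L1 and MANF to the left (-1.06 and -1.07), and the intervals of HERPUD1, CRELD2, PDIA4 and DNAJB9 cross 0.

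HSPA5 and HSP90B1 were the 2 members with the highest signal per kb of transcript. HSPA5 encodes BiP, the ER HSP70, which binds unfolded chains and keeps the 3 sensors silent. Its signal was 19379, 19744 and 19890.0 in Control replicates 1 to 3 against 29003, 32254 and 37108 in DCC-2036 replicates 1 to 3. All DCC-2036 libraries were above all Control libraries, and replicate 3 was the highest. The log2 fold change was 0.73 (SE 0.12, adjusted p = 0.00278), above that of 84.6% of tested genes. HSP90B1 encodes GRP94, the ER HSP90, which takes over clients such as integrins and Toll-like receptors. It stood at 17472, 18148 and 15937 in Control against 20627, 23029 and 28933 in DCC-2036. The groups did not overlap, but the DCC-2036 libraries were spread over a wide range, and the log2 fold change of 0.48 (95% interval 0.12 to 0.84, adjusted p = 0.0297) did not reach the call.

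**Figure D3:**
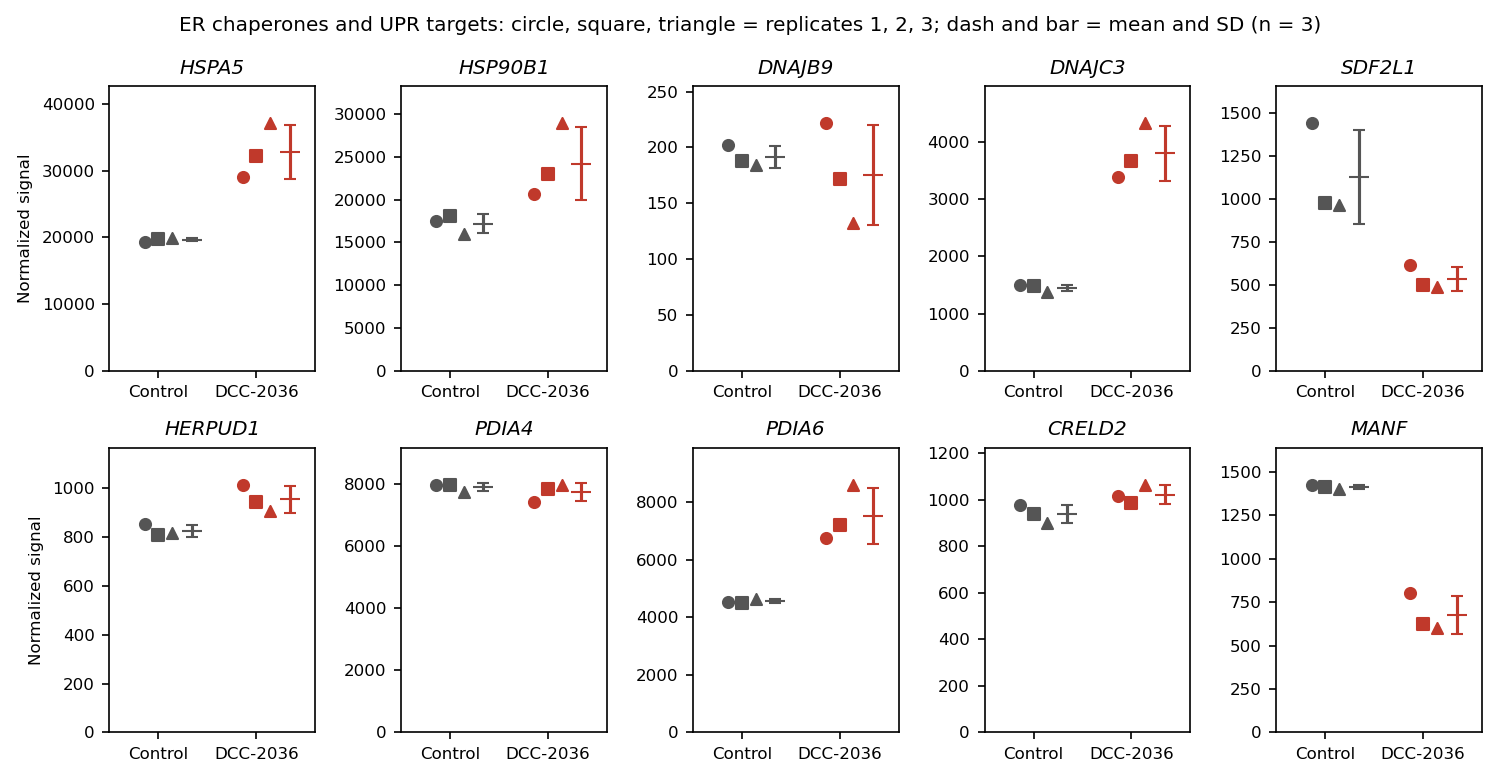
Normalized signal (y axes, each starting at 0) of the 10 members in the 3 Control and 3 DCC-2036 libraries (circle, square and triangle, replicates 1, 2 and 3), with mean and SD. HSPA5, HSP90B1, DNAJC3 and PDIA6 were highest in DCC-2036 replicate 3, SDF2L1 and MANF were below Control in every DCC-2036 library, and DNAJB9 and PDIA4 overlap between the groups.

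Members DNAJC3, DNAJB9 and SDF2L1 act in the J protein systems that feed clients to BiP. DNAJC3 encodes P58IPK, a lumenal co-chaperone of BiP first known as an inhibitor of the eIF2α kinases. Its signal was 1492, 1476 and 1387 in Control against 3394, 3672 and 4328 in DCC-2036. Every DCC-2036 library was more than 2 times the highest Control library, and its log2 fold change of 1.38 (SE 0.12, adjusted p = 0.000414) was above that of 96.6% of tested genes. DNAJB9 encodes ERdj4, a co-chaperone that returns BiP to IRE1 and so restrains that sensor. It was the member with the lowest signal, 202, 188 and 184 in Control against 222, 172 and 132 in DCC-2036. The DCC-2036 libraries lay on both sides of Control, with a log2 fold change of -0.16 (95% interval -0.62 to 0.31, adjusted p = 0.503), an interval that leaves room for a change of either sign. SDF2L1, which joins the J protein ERdj3 in a complex that keeps BiP clients soluble, stood at 1444, 979 and 968 in Control against 616, 501 and 491 in DCC-2036. The groups did not overlap, with Control replicate 1 far above the other Control libraries, and the log2 fold change was -1.06 (SE 0.19, adjusted p = 0.00402). The call was lost without Control replicate 2 (adjusted p = 0.0112), Control replicate 3 (0.011) or DCC-2036 replicate 2 (0.0176). Calls among all tested genes also fell in these fits.

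Partners of these co-chaperones had values on both sides of 0. DNAJB11, which encodes ERdj3 itself, had a log2 fold change of 0.04 (adjusted p = 0.725), and SDF2, the constitutive paralog of SDF2L1, one of -0.81 (adjusted p = 0.0145). SDF2L1 and SDF2 were both below Control in all DCC-2036 libraries, and the ratio of SDF2L1 to SDF2 was 3.23, 1.87 and 1.92 in Control against 1.77, 1.65 and 2.39 in DCC-2036, so that it overlapped. HYOU1, a nucleotide exchange factor of BiP, was called higher at 0.47 (adjusted p = 0.00729), while the other exchange factor, SIL1, had -0.34 (adjusted p = 0.0227).

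The pair of disulfide isomerases split. PDIA6, also known as P5, forms disulfide bonds on BiP clients and attenuates IRE1 and PERK. Its signal was 4515, 4510.4 and 4626 in Control against 6749, 7208 and 8602 in DCC-2036. The lowest DCC-2036 library lay well above the highest Control library, at a log2 fold change of 0.72 (SE 0.12, adjusted p = 0.00304). PDIA4, also known as ERp72, an isomerase of the same chaperone complexes, had 7974, 7986 and 7747 in Control against 7432, 7854 and 7984 in DCC-2036. Its libraries overlapped almost entirely, and the 95% interval of -0.25 to 0.19 around -0.03 (adjusted p = 0.806) was the narrowest of the 10. Set against PDIA4 in the same library, PDIA6 was at 0.566, 0.565 and 0.597 in Control against 0.908, 0.918 and 1.08 in DCC-2036, which gives no test of either gene. The pair was chosen after the values had been seen.

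MANF and CRELD2 encode small soluble ER proteins that are also secreted, and both are known ER stress genes. MANF, a neurotrophic factor that binds BiP and slows its nucleotide exchange, was tight in Control at 1427, 1414 and 1403 and stood at 801, 624 and 604 in DCC-2036. All DCC-2036 libraries lay far below all Control libraries, with a log2 fold change of -1.07 (SE 0.13, adjusted p = 0.0011) that was above that of only 16.5% of tested genes. CDNF, the paralog of MANF, had 11.3 to 16.02 in Control against 5.22 to 9.25 in DCC-2036, so it passed the filter only through Control and nothing is read from its difference. CRELD2, a disulfide isomerase-like protein with EGF repeats, had 979.8, 938 and 903 in Control against 1016, 985 and 1066 in DCC-2036. Its groups did not overlap but nearly met, and the log2 fold change was 0.12 (95% interval -0.11 to 0.35, adjusted p = 0.3). The paralog CRELD1 had 0.13 (adjusted p = 0.642).

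HERPUD1 encodes HERP, a membrane scaffold of the HRD1 complex that sends misfolded proteins to the proteasome. Its signal was 855, 808 and 818 in Control against 1015, 944 and 906 in DCC-2036. Here DCC-2036 replicate 1 was the highest and replicate 3 the lowest of the group, the reverse of HSPA5, and the log2 fold change was 0.21 (95% interval -0.03 to 0.44, adjusted p = 0.108). Its paralog HERPUD2 had -0.06 (adjusted p = 0.691). In the exact permutation test on single genes, which with 3 against 3 libraries cannot go below p = 0.1 (two-sided), the 8 members without overlap all stood at that limit, DNAJB9 at 0.7 and PDIA4 at 0.6.

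Ratios within a library do not depend on 1 scale factor for that library, but another kind of normalization could change them. As a description 2 ratios are given, for genes picked after their fold changes were seen. In Control, DNAJC3 and MANF had nearly the same signal, with a ratio of 1.04, 1.04 and 0.989, and in DCC-2036 the ratio was 4.24, 5.89 and 7.16. The ratio of HSPA5 to MANF was 13.6, 14.0 and 14.2 in Control against 36.2, 51.7 and 61.4 in DCC-2036. Both ratios were higher in every DCC-2036 library than in any Control library. As signal per kb of transcript, the order in Control was HSP90B1 (6013), HSPA5 (5034), PDIA4 (2722), PDIA6 (1814), SDF2L1 (1306), MANF (1227), CRELD2 (596), HERPUD1 (281), DNAJC3 (259.7) and DNAJB9 (70.5). Of neighbours in this order, SDF2L1 and MANF overlapped between libraries and the others did not. In DCC-2036 the ranges of these 3 genes overlapped, at 524 to 695 per kb for MANF, 567 to 712 for SDF2L1 and 607 to 774 for DNAJC3.

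Over the 6 libraries, on log2(value + 1), PDIA6 (Pearson r = 0.998) and DNAJC3 (0.989) were the members whose levels ran closest to HSPA5, and MANF (-0.991) and SDF2L1 (-0.943) ran opposite to it. HSP90B1 was at 0.943, CRELD2 at 0.821, HERPUD1 at 0.737, PDIA4 at -0.151 and DNAJB9 at -0.579. These values describe 6 libraries in 2 groups and mostly carry the difference between the groups. Outside the lists used here, the genes closest to HSPA5 included S100A3, YTHDF3, RNASEH1 and VAMP1, with r from 0.9993 to 0.9997.

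Where a member had other transcripts, their fold changes were close to that of the main one. The 5 transcripts of PDIA6 had log2 fold changes of 0.71 to 0.72 and were all called higher, the 3 of HERPUD1 had 0.13 to 0.27 and the 4 of CRELD2 0.11 to 0.17, with 0 called by limma over 32323 transcripts. At an unadjusted p under 0.05 in limma, 1 of these HERPUD1 transcripts passed and 0 of CRELD2 did. The values of the PDIA6 transcripts lay within a few percent of each other in all libraries, and how reads shared by transcripts were assigned is not given in the sources used here.

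Of the sensors and transcription factors of the response, 11 of 13 listed genes were tested, of which 2 (18.2%) were called higher, 3 (27.3%) lower and 6 not. These shares are close to the 19.2% and 22.7% of all tested genes. With a replicate block (the replicate number as a term of the model) the counts were 1 and 2, and with equal totals 1 and 3. Those of all tested genes were 1202 and 1909 with the block and 1716 and 3386 with equal totals. MBTPS1 lost its call in both (adjusted p = 0.0193 and 0.0185), and CREB3L3 lost its call with the block (0.0194). ERN1 kept its call in both. Fold changes were the same with and without the block, and the replicate numbers were not taken as pairs. ERN1, the IRE1 gene, rose from 183, 200.3 and 189 in Control to 524, 499 and 345 in DCC-2036 (log2 fold change 1.23, SE 0.18, adjusted p = 0.00175). XBP1, the mRNA that IRE1 splices, had 948, 914 and 934 in Control against 817, 656 and 663 in DCC-2036, below Control in all libraries without reaching the call (-0.40, adjusted p = 0.0273). The RefSeq transcripts of its unspliced and spliced form had log2 fold changes of -0.40 and -0.32 (adjusted p = 0.0261 and 0.0616), but they share nearly all of their sequence and were not read as a measure of splicing. EIF2AK3, the PERK gene, had 0.43 (adjusted p = 0.0154) and ATF6 0.16 (adjusted p = 0.175). The 2 proteases that release ATF6 moved apart, MBTPS1 at 0.54 (adjusted p = 0.00434) and MBTPS2 at -0.84 (adjusted p = 0.00202), and CREB3L3, a related membrane-bound factor, was called lower at -0.88 (adjusted p = 0.00935). CREB3L3 had 16.55 to 17.6 in Control against 7.18 to 12.4 in DCC-2036, so it passed the filter only through Control, the group where it is high, and its call is not independent of the filter. Without CREB3L3, 2 of 10 genes of this list were called higher and 2 lower, with a median log2 fold change of 0.22 (0.16 with it).

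The genes downstream of PERK and ATF4 had the highest median of the lists. Of 18 tested, 13 were called higher, 2 lower and 3 not, against 19.2% and 22.7% of all tested genes, with a median log2 fold change of 1.17. With equal totals the counts were 13 and 2, and with the replicate block 11 and 2. Those of all tested genes were 1716 and 3386 with equal totals and 1202 and 1909 with the block. The 13 include NUPR1, which passed the filter only through DCC-2036, the group where it is high (1.76 to 6.66 in Control against 16.7 to 40.5), and without it 12 of 17 were called higher, with a median of 1.12. ATF4 itself was called higher (0.78, adjusted p = 0.00316), as were SLC7A11, the cystine transporter subunit (3.17, adjusted p = 0.00022), and ATF3, a stress-induced transcription factor (2.74, adjusted p = 0.000265). DDIT3, encoding CHOP, the factor most often used as a marker of this arm, was not called, with 202, 226 and 219 in Control against 187, 194 and 209 in DCC-2036 (-0.13, adjusted p = 0.283). PPP1R15A and PPP1R15B, the regulatory subunits of the eIF2α phosphatase, were the genes called lower (-1.36 and -0.85, adjusted p = 0.000272 and 0.00117). Several of these genes answer to amino acid shortage as well as to ER stress, and the list does not tell the triggers apart.

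Other genes of the ER were counted by function. Over the sensor list and the 6 lists of ER functions together, 153 genes besides the members were tested, of which 54 (35.3%) were called higher and 21 (13.7%) lower, with a median of 0.25, against 19.2% and 22.7% of all tested genes. The 153 include CREB3L3, which is among the 21 called lower, and CLGN and CDNF, which were not called. All of these passed the filter only through Control, the group where they are high. With equal totals the counts were 36 higher and 28 lower, where 1716 of all tested genes were called higher and 3386 lower. With the replicate block they were 20 and 11, where those of all tested genes were 1202 and 1909. When any 1 Control library or DCC-2036 replicate 2 was left out, 17 to 19 were called higher and 8 to 11 lower. Those of all tested genes were 928 to 1054 and 1514 to 1708. Oxidoreductases and prolyl isomerases, the class of PDIA4 and PDIA6, had 12 of 24 called higher and 0 lower by limma, with TXNDC15 at 1.11 and ERP29 at 1.07 the highest. At an unadjusted p under 0.05, 1 was lower, FKBP7. With equal totals 6 were called higher, and 3 with the block. Translocation and signal peptide cleavage had 12 of 24 higher and 1 lower, with SEC61A1, the channel subunit, at 1.03 and TRAM1 at 0.75, and SRPRA, the receptor of the signal recognition particle, at -0.77. Those called higher were 8 with equal totals and 3 with the block. COPII and KDEL receptor traffic had 10 of 21 higher and 2 lower, with SAR1A at 1.17 and SEC24D at 0.90 against PREB, the exchange factor that loads SAR1, at -2.39 and KDELR3 at -0.85. Here 7 were called higher with equal totals and 4 with the block.

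The other chaperones, degradation and N-glycosylation had medians of 0.04, 0.16 and -0.04. Of all tested genes 19.2% (2442) were called higher and 22.7% (2887) lower. With the block these counts were 1202 and 1909, and with equal totals 1716 and 3386. Of 20 other ER chaperones and co-chaperones, 3 were called higher and 1 lower (1 and 0 with the block, 2 and 3 with equal totals), with DNAJC1 at 1.14 and SEC63 at 1.12 against DNAJB12 at -1.33. Without CLGN and CDNF, 3 of 18 were called higher and 1 lower, with a median of 0.05. ER-associated degradation, the pathway of HERPUD1, had 7 of 25 higher and 5 lower (2 and 2 with the block, 4 and 6 with equal totals), with DERL1 at 1.27 against RNF5 at -2.61 and EDEM3 at -2.15. N-glycosylation had 8 of 28 higher and 9 lower (6 and 5 with the block, 8 and 12 with equal totals), from RPN2 at 1.02 and ALG9 at 0.92 to ALG8 at -1.99 and ALG12 at -1.63. With equal totals the list medians changed sign for the sensors (0.16 to -0.03), the other chaperones (0.04 to -0.15) and degradation (0.16 to -0.03), and that of N-glycosylation did so with median of ratios scaling (-0.04 to 0.04).

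Chaperones outside the ER had medians below 0, where 19.2% of all tested genes were called higher and 22.7% lower. Of 18 cytosolic heat shock genes, 2 were called higher (BAG3 at 0.68 and DNAJA2 at 0.64) and 5 lower, with DNAJB1 at -1.10 and FKBP4 at -1.03 the lowest, and a median of -0.25. With the block, BAG3 and DNAJA2 lost their calls (adjusted p = 0.0134 and 0.0109) and 2 genes were called lower. Calls among all tested genes also fell with the block, from 2442 to 1202 higher and from 2887 to 1909 lower. BAG3 was also not called with equal totals (adjusted p = 0.0158), where 1716 of all tested genes were called higher. With median of ratios scaling 3 were called lower, and 2634 of all tested genes. Of 12 mitochondrial chaperones and proteases, 2 were called higher (GRPEL2 at 0.97 and YME1L1 at 0.60) and 8 lower, with HTRA2 at -1.71 and DNAJA3 at -1.42 the lowest, and a median of -0.60. With the block, GRPEL2 and YME1L1 lost their calls (adjusted p = 0.0142 and 0.0148) and 4 genes were called lower. The fold changes of BAG3, DNAJA2, GRPEL2 and YME1L1 were the same with and without the block.

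Genes with a complete element in the promoter window were also counted. Of 30 tested genes with ERSE or ERSE-II, members included, 4 (13.3%) were called higher, 5 (16.7%) lower and 21 not, with a median log2 fold change of -0.01. Among all tested genes 19.2% were called higher and 22.7% lower, with a median of -0.09, and nothing particular to the element is read from the 30. Among 16 genes with ERSE, HSPA5, PDIA6 and EIF2A (0.63) were called higher and ALG12 (-1.63) lower, while the lectin chaperones CALR (0.04) and CANX (0.06) were not called. Among 14 with ERSE-II, HYOU1 (0.47) was called higher and SDF2L1, GYS1 (-1.59), RAD9A (-0.90) and RUVBL2 (-0.53) lower. Without the members, 24 remained, of which 2 were called higher and 4 lower. DNAJC3, MANF, DNAJB9 and PDIA4 held the short boxes and neither complete element.

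SDF2L1 (865 bases) and MANF (1153 bases) are the shortest members, and SDF2L1 has the highest GC content of the members (65.5%) and DNAJC3 the lowest (39.9%). Across 12293 tested genes with a length, fold changes ran lower at high GC content, with a median of -0.29 at 55% or more and 0.07 under 45%, while genes under 1200 bases had a median of 0.13. The Spearman correlation of fold changes was -0.135 with GC content and -0.027 with length, so both dependences were weak. They were removed in a step chosen after seeing the data. MANF was then at -0.95, SDF2L1 at -1.09 and DNAJC3 at 1.41, and all 3 kept their calls (adjusted p = 0.00212, 0.00708 and 0.000485). HERPUD1 gained the call in this setting (0.36, adjusted p = 0.00882). The part of GC content and length in the fold changes of the members was not tested.

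Calls differed in how often they were kept in the alternatives. DNAJC3 stayed called higher (1.19 to 1.46) and MANF called lower (-1.26 to -0.95) in all 19 alternatives run. HSPA5 and PDIA6 kept their direction in all 19, at 0.54 to 0.85 and 0.53 to 0.82. Both lost the call when any 1 Control library or DCC-2036 replicate 2 was left out, with adjusted p of 0.0135 to 0.0146 for HSPA5 and 0.013 to 0.0161 for PDIA6. Their log2 fold changes in these fits were 0.72 to 0.74 and 0.71 to 0.74, near those with all libraries. Calls higher among all tested genes fell from 2442 to between 928 and 1054 in the same fits. HSP90B1 was at 0.29 to 0.59.

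**Figure D4:**
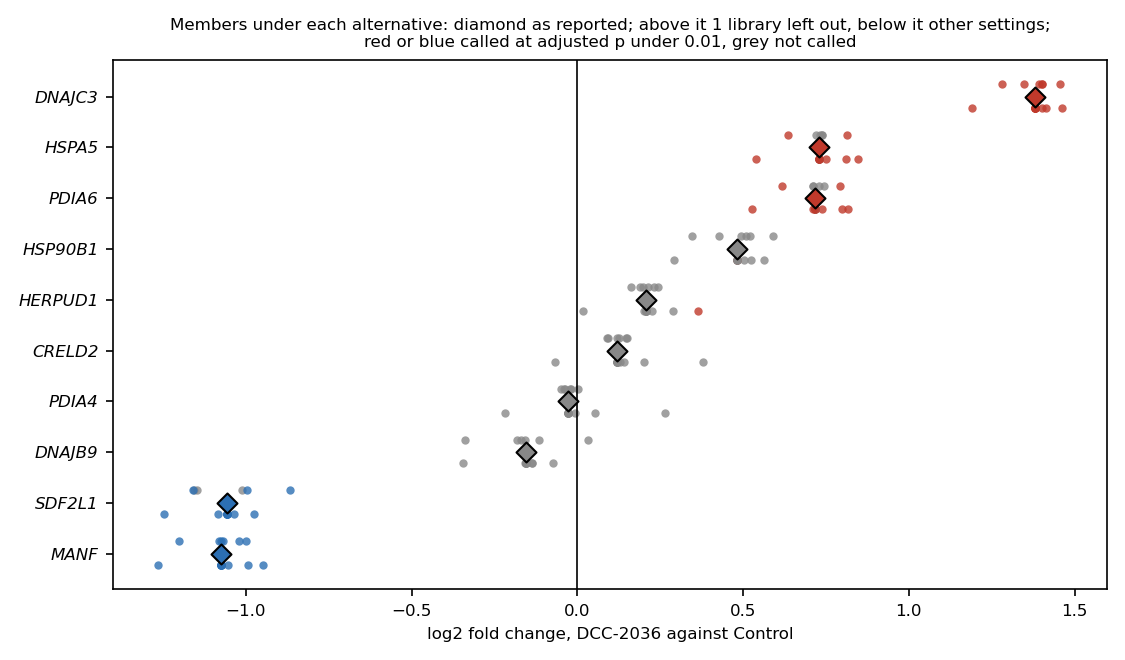
Log2 fold change of each member (x axis) as reported (diamond), with 1 library left out (dots above) and under the other settings (dots below), coloured red or blue where the adjusted p-value was under 0.01 and grey where it was not. DNAJC3 and MANF are coloured at every dot, HSPA5 and PDIA6 turn grey at 4 of the 6 dots above their diamonds, and PDIA4, CRELD2 and DNAJB9 lie on both sides of 0.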

How the data were processed

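RNA-seq libraries of LoVo cells (3 Control, 3 DCC-2036) were analysed. According to the labels, RNA was isolated with Trizol and libraries were made with the Illumina Nextera XT kit. The aligner, the counting tool, the genome build and the scaling method are not given in the sources used here. The authors deposited 1 table of RefSeq transcripts with a normalized signal per library that is not a whole number, so depth is unknown and no count test or counting interval was made. The deposited table also holds the authors' own log2 fold change, p-value and q-value for each transcript, which were not used.

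For each symbol, the most abundant transcript was kept. Symbols reaching a signal of 10 in 3 or more libraries (12725) were tested with limma 3.58.1 in R 4.3.3 on log2(signal + 1), without covariates, with Benjamini-Hochberg adjustment over all of them and calls at an adjusted p-value under 0.01. Fold changes on this scale understate changes of low genes. Exact permutation tests used scipy 1.17.1 in Python 3.11.15. The code was tested on simulated data. Lengths and GC contents of transcripts were taken from GENCODE 29 (96.6% of tested symbols), promoter windows from RefSeq.

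The members, the gene lists and the tests were chosen with earlier results of these data known. Named genes are all members, the 2 highest and 2 lowest called genes of each list, XBP1, ATF4, ATF6, ERN1, EIF2AK3 and DDIT3, paralogs or partners of members, and the 5 genes closest to HSPA5; 2 genes under this rule are not reported here. Genes named for their promoters, FKBP7 and the ratios were chosen after their values were seen. Alternatives were 3 scalings, other filters, a pseudocount of 0.1, limma with a trend, a replicate block, transcripts as rows or summed, 1 library left out, an adjusted p limit of 0.05, a minimum absolute log2 fold change of 1, and removal of GC and length dependence.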

Additional observations from a re-analysis of the deposited data

How the results depend on the processing

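The 3 members called higher and 2 called lower kept these counts under the 3 scalings, the other filters, a pseudocount of 0.1 and summed or separate transcripts. A limit of 0.05 added HSP90B1 (adjusted p = 0.0297), limma with a trend did so too (0.00975), and removal of the GC and length trend added HERPUD1. Without 1 library, members called higher ranged from 1 to 3 and lower from 1 to 2, all tested genes from 928 to 2675 higher and from 1514 to 3507 lower, and genes of the pooled ER and sensor lists from 17 to 57 higher and from 8 to 27 lower. With a replicate block, 1 member was called higher, 1202 and 1909 of all tested genes were called higher and lower (2442 and 2887 without it), and 20 and 11 of the pooled lists. HSPA5 (adjusted p = 0.0111) and PDIA6 (0.0116) lost the call there. Libraries sharing a replicate number deviated together by correlations of 0.081, -0.035 and -0.003, so the numbers were not taken as pairs. A minimum absolute log2 fold change of 1 left 1 member higher and 2 lower, 944 of all tested genes higher and 1930 lower, and 13 higher and 9 lower in the pooled lists. At a limit of 0.05, 69 of the pooled lists were called higher and 35 lower, against 3630 and 4290 of all tested genes. With transcripts as rows, 6379 were called higher and 7250 lower, because more rows were tested. The median of the members was 0.25 with median of ratios scaling, -0.0262 with equal totals and 0.37 after GC and length removal, where that of all genes was 0.0608. Equal totals gave 1716 genes higher and 3386 lower, and the GC and length removal 3155 and 2452. Among members not called, PDIA4 turned to 0.0541 with median of ratios scaling and to 0.26 after GC and length removal, and CRELD2 to -0.0688 with equal totals and 0.38 (adjusted p = 0.013) after GC and length removal. When 1 library was left out, PDIA4 ranged from -0.0485 to 0.0031 and DNAJB9 from -0.3403 to 0.0309, above 0 only without DCC-2036 replicate 1 and replicate 3, respectively. The causes were not tested. With 3 libraries per group and unknown depth, small changes in the members not called cannot be judged.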
